A study of Mus musculus with 16 samples.

Results

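The vesicle fusion and release machinery was examined through 9 genes chosen by name: the synaptotagmins Syt1, Syt4, Syt7 and Syt11, the RIM genes Rims1 and Rims2, and the SNARE genes Snap25, Stx1a and Vamp2. All 9 were among the 25006 genes counted and among the 12390 genes that had enough counts to be tested. Their mRNA was measured in midbrain dopaminergic neurons of the substantia nigra pars compacta (SNc) of 8 wild-type and 8 MCU-KO mice, at postnatal day 45 and 30 days after injection of a viral vector. Wild-type mice were DAT-Cre +/- and MCU-KO mice were DAT-Cre +/- MCU fl/fl, so that Mcu, the pore-forming subunit of the mitochondrial Ca2+ uniporter, was to be lost only from cells that express Cre from the dopamine transporter gene. Every mouse of either genotype carried the Cre allele and received the same AAV9 vector in both hemispheres. The vector encoded a Myc-DDK tagged ribosomal protein, Rpl22l1, that is made only in cells with Cre, and the mRNA was recovered by immunoprecipitating the tagged ribosomes (RiboTag). The wild-type mice came from a cross of DAT-Cre +/+ with C57/BL6 mice, not from the floxed line, and line and genotype cannot be told apart.

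Neurons release transmitter when a vesicle SNARE, VAMP2, zippers with the plasma membrane SNAREs syntaxin-1A and SNAP-25 and pulls the membranes together. Synaptotagmins are vesicle proteins with C2 domains. Several of them bind Ca2+ and couple its entry to fusion, whereas RIM proteins organize the active zone, bind Rab3 on vesicles and hold Ca2+ channels near the docked pool. SNc neurons release dopamine from axon terminals in the striatum and also from their cell bodies and dendrites.

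Between 14129527 and 22016362 counts were assigned to genes per mouse, with the lowest total in MCU-KO mouse 8. Levels are given as CPM, counts scaled to the library size after TMM normalization. The targeted gene Mcu lay between 6.25 and 43.1 CPM in wild type and between 0.301 and 21.3 CPM in MCU-KO, so that the genotypes overlapped (log2 fold change -1.19, 95% interval -2.41 to 0.04, edgeR adjusted p = 1.00). Its counts did not separate the genotypes mouse by mouse, and edgeR's unadjusted p was 0.0569. By qRT-PCR on RiboTag mRNA, the paper reported lower Mcu in MCU-KO than in wild type. It also reported less mitochondrial Ca2+ uptake in MCU-KO neurons. Th, which encodes tyrosine hydroxylase, was at 4203 CPM or more in every mouse and Slc6a3, the dopamine transporter gene, at 1769 CPM or more. Summed CPM of 8 dopaminergic markers ranged from 13399 to 17450 in wild type and from 11601 to 19839 in MCU-KO. Glial transcripts were present as well: 6 oligodendrocyte markers summed to between 2843 and 5489 CPM in wild type and between 3332 and 6507 CPM in MCU-KO, and 6 astrocyte markers to between 326 and 659 CPM and between 456 and 897 CPM. No library of total tissue RNA was used here, so enrichment over the surrounding tissue was not measured.

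None of the 9 genes passed the test of a difference between genotypes. Adjusted p was 1.00 for each of them (edgeR's quasi-likelihood test, Benjamini-Hochberg over 12390 genes), a count of 0 against 22 genes or 0.178% of all genes tested. At an unadjusted p under 0.05 the count was again 0 of 9, where 547 genes or 4.41% of all genes passed, 2.25% higher and 2.16% lower in MCU-KO. DESeq2 called 0 of the 9 at an adjusted p under 0.05 and 0 at an unadjusted p under 0.05, against 0.557% and 5.65% of the genes it tested. By limma-voom the counts were also 0 and 0, against 0.218% and 6.69%. The fitted level was higher in MCU-KO for 5 genes and lower for 4, with a median log2 fold change of 0.04, beside a median of 0.00 over all genes tested. CPM overlapped between genotypes for all 9 genes, and only 31 of all genes tested, or 0.25%, had CPM that did not overlap. The counts come from bulk samples, in which fewer cells of a type and less RNA per cell cannot be told apart.

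**Figure D1:**
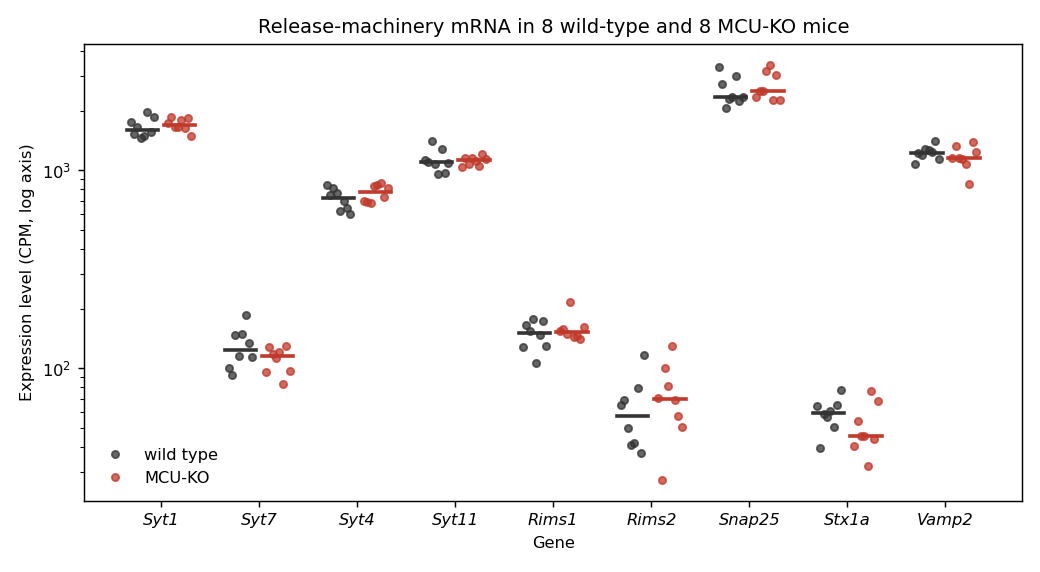
CPM on a log axis for the 9 genes in each of 8 wild-type and 8 MCU-KO mice, where each point is a mouse and the horizontal bar is the median of its genotype. The genotypes overlap for every gene, and Rims2 spreads most widely, from 27.3 to 129 CPM among MCU-KO mice.

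Syt1 encodes synaptotagmin-1, the fast Ca2+ sensor of synchronous release at many synapses. Its mRNA lay between 1452 and 1969 CPM in wild type (median 1604) and between 1491 and 1849 CPM in MCU-KO (median 1697). Wild-type mice 6 and 4 held the highest and the lowest value of all 16, and the MCU-KO values fell inside that range. Its log2 fold change was 0.04 (SE 0.07, 95% interval -0.11 to 0.19, edgeR adjusted p = 1.00). The interval corresponds to a ratio of MCU-KO to wild type between 0.927 and 1.14. The gene lies on chromosome 10 from 108497650 to 109010982 on the minus strand (GRCm38).

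Syt7 encodes synaptotagmin-7, a slower sensor of high Ca2+ affinity that serves asynchronous release and synaptic facilitation and has been tied to somatodendritic dopamine release. Its CPM ranged from 92.8 to 186 in wild type (median 124) and from 83.4 to 129 in MCU-KO (median 116). It was the member with the smallest unadjusted p. Of the 8 MCU-KO mice, 6 lay under the wild-type median, yet only mouse 6 lay under the lowest wild-type mouse. The log2 fold change was -0.23 (SE 0.15, 95% interval -0.53 to 0.08, edgeR adjusted p = 1.00). Without MCU-KO mouse 6 it was -0.18, and without wild-type mouse 6, the highest of all, -0.13. Syt7 is on chromosome 19 from 10389090 to 10453180 on the plus strand, and 4.25% of the stretches of 50 bases in its transcripts also occur in Gm26859, which is annotated on the opposite strand. Whether the counting used strand is not given in the sources used here.

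Syt4 and Syt11 encode synaptotagmins that do not bind Ca2+ through their first C2 domain. Syt4 has been described on dense-core vesicles, and Syt11 in vesicle trafficking and endocytosis. Syt4 ranged from 604 to 842 CPM in wild type (median 722) and from 683 to 859.8 CPM in MCU-KO (median 774), with 3 wild-type mice under the lowest MCU-KO mouse. Its log2 fold change was 0.10 (SE 0.09, 95% interval -0.07 to 0.28, edgeR adjusted p = 1.00). The gene occupies chromosome 18 from 31437808 to 31447406 on the minus strand, and 10.9% of its stretches of 50 bases occur in the opposite-strand transcript Gm26658.

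Syt11 had the fold change nearest to no difference. Its CPM lay between 955 and 1402 in wild type (median 1095) and between 1041 and 1209 in MCU-KO (median 1126), so that all MCU-KO mice fell inside the wild-type range. The log2 fold change was -0.01 (SE 0.08, 95% interval -0.17 to 0.15, edgeR adjusted p = 1.00), and leaving out single mice moved it between -0.04 and 0.04. Syt11 lies on chromosome 3 from 88744700 to 88775164 on the minus strand and shares 5.92% of its stretches of 50 bases with other genes.

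Rims1 and Rims2 encode the long RIM proteins. Rims1 ranged from 107 to 178 CPM in wild type (median 150.2) and from 140.1 to 216 CPM in MCU-KO (median 152). Of the MCU-KO mice, 7 lay within 140.1 to 161 CPM and mouse 4 stood apart at 216 CPM, the mouse that also had the highest sums of astrocyte and of oligodendrocyte markers (897 and 6507 CPM). The part of those cells in the Rims1 value was not tested. The log2 fold change of Rims1 was 0.10 (SE 0.12, 95% interval -0.16 to 0.36, edgeR adjusted p = 1.00) with all mice and 0.03 without MCU-KO mouse 4. The gene is on chromosome 1 from 22286251 to 22805994 on the minus strand.

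Rims2 was the least precisely measured of the 9. Its CPM ran from 37.4 to 117 in wild type (median 57.5) and from 27.3 to 129 in MCU-KO (median 69.9), a 3.13-fold range among wild-type mice and a 4.73-fold range among MCU-KO mice. The lowest and the highest of the 16 values were both MCU-KO, in mice 2 and 5. Between genotypes it had a log2 fold change of 0.22 (SE 0.27, 95% interval -0.34 to 0.79, edgeR adjusted p = 1.00), and leaving out single mice gave values from 0.06 to 0.42. Rims2 spans chromosome 15 from 39198261 to 39684372 on the plus strand, and none of its stretches of 50 bases occur in another gene.

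Snap25 encodes the plasma membrane SNARE that contributes a pair of helices to the fusion complex. Its CPM ranged from 2063 to 3319 in wild type (median 2331) and from 2251 to 3409 in MCU-KO (median 2516). In each genotype the 3 highest mice lay apart from the other 5, which reached 2332 CPM in wild type and 2523 CPM in MCU-KO, and the genotypes overlapped throughout. The fitted log2 fold change was 0.08 (SE 0.11, 95% interval -0.14 to 0.30, edgeR adjusted p = 1.00). Snap25 is on chromosome 2 from 136713453 to 136782428 on the plus strand.

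Stx1a encodes syntaxin-1A, the plasma membrane partner of SNAP-25. Its CPM ranged from 39.7 to 77.7 in wild type (median 59.7) and from 32.2 to 77.1 in MCU-KO (median 45.3). Of the MCU-KO mice, 6 lay under the wild-type median, and mice 6 and 8 lay among the highest wild-type mice. Those mice had the lowest sums of dopaminergic markers among MCU-KO mice (11601 and 13510 CPM). Wild-type mouse 3, with the lowest sum in wild type (13399 CPM), had 58.6 CPM of Stx1a. The part of cell composition in these values was not tested. The fitted log2 fold change was -0.22 (SE 0.19, 95% interval -0.62 to 0.18, edgeR adjusted p = 1.00). With the dopaminergic markers as a covariate it was -0.31. The gene is on chromosome 5 from 135023482 to 135051100 on the plus strand.

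Vamp2 encodes synaptobrevin-2, the SNARE carried by the vesicle. Its CPM ranged from 1079.6 to 1397 in wild type (median 1223) and from 854 to 1385 in MCU-KO (median 1159). The lowest value belonged to MCU-KO mouse 6, which also had the lowest Syt7 and the highest Syt4 of all mice, the lowest sum of dopaminergic markers (11601 CPM) and the highest sums of GABAergic, glutamatergic and microglial markers (333, 103 and 137 CPM). The part of those cells in the 3 genes was not tested. The log2 fold change of Vamp2 was -0.07 (SE 0.09, 95% interval -0.25 to 0.11, edgeR adjusted p = 1.00) with all mice and -0.01 without that mouse. Vamp2 lies on chromosome 11 from 69088490 to 69092384 on the plus strand.

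**Figure D2:**
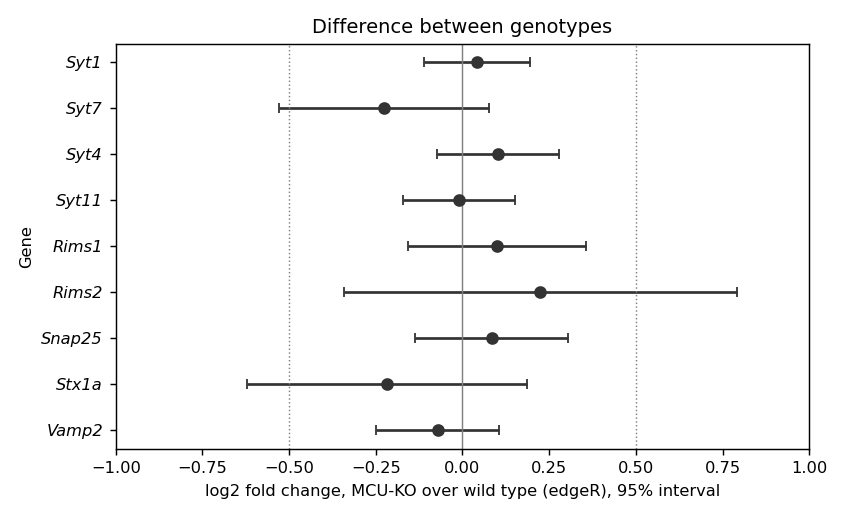
Fitted log2 fold change of MCU-KO over wild type for the 9 genes, with 95% intervals from edgeR as bars, a solid line at 0 and dotted lines at 0.5 in either direction. The intervals of Syt7, Rims2 and Stx1a cross a dotted line and those of the other 6 genes lie inside.

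The width of these intervals sets how large a difference the 16 mice leave possible. For 6 of the 9 genes, Syt1, Syt4, Syt11, Rims1, Snap25 and Vamp2, the 95% interval lay within 0.5 log2 units of 0, which was so for 2494 or 20.1% of all genes tested. Syt7 and Stx1a could still be lower, and Rims2 higher, by more than 0.5 log2 units. Spread between mice of a genotype differed widely among the 9. The SD of log2 CPM was 0.13 for Syt1, and 0.484% of all genes tested had a smaller one. It was 0.14 for Syt11, 0.16 for Syt4 and 0.17 for Vamp2, with 0.783%, 1.49% and 2.23% of genes below them. Syt1, Syt11, Syt4 and Vamp2 are abundant: from 98.5% (Syt4) to 99.7% (Syt1) of all genes tested had a lower wild-type CPM. The shares of all genes given here for intervals and spread are not matched for level. Spread was wider for Rims1 and Snap25, each at 0.23, for Syt7 at 0.28 and for Stx1a at 0.35. Rims2, at 0.62, was near the middle of all genes, with 46.3% below it.

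The levels of the 9 genes were then compared with each other in wild type, per kilobase of annotated exons (CPM per kb, geometric mean of 8 mice). They fell into an upper set of 5 and a lower set of 4. Snap25 stood at 369 CPM per kb and Vamp2 at 321. The vesicular synaptotagmins followed, with Syt11 at 215, Syt1 at 198 and Syt4 at 183 CPM per kb. Stx1a at 21.9, Rims1 at 19.8, Syt7 at 16.9 and Rims2 at 5.62 CPM per kb formed the lower set. Between 97.1% and 98.8% of all genes tested had lower levels per kb than the genes of the upper set, whereas Rims2 lay above 52.1% of them.

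Only 3 of the 8 pairs of neighbours in that order differed beyond their spread, each with p = 0.0078 by an exact two-sided sign-flip test, the smallest p that 8 mice allow, and an adjusted p of 0.0208. By either length used, neighbours were found by ranking the genes in these same 8 mice. The pairs tested were therefore not fixed beforehand, and the p-values do not allow for that choice. On the log2 scale Vamp2 exceeded Syt11 by 0.58, Syt4 exceeded Stx1a by 3.06, which is 8.36-fold, and Syt7 exceeded Rims2 by 1.59, all in 8 of 8 mice. Snap25 and Vamp2 were not told apart (adjusted p = 0.175 by the exact permutation of signs, Snap25 higher in 5 of 8 mice), nor were Syt11 and Syt1 (0.175), Syt1 and Syt4 (0.304), Stx1a and Rims1 (0.422) or Rims1 and Syt7 (0.260). The order did not change when any single mouse was left out. It depended on the length used. Per kb of the longest transcript, Vamp2 led at 554 CPM per kb, Snap25 followed at 513, and Syt1 came next at 342, ahead of Syt11 at 222. By that length Snap25 exceeded Syt1, Syt1 exceeded Syt11 and Syt11 exceeded Syt4, each in 8 of 8 mice (exact sign-flip adjusted p = 0.0156). Syt7 no longer differed from Rims2 (exact sign-flip adjusted p = 0.075). The gap between Syt4 and Stx1a was present by either length.

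**Figure D3:**
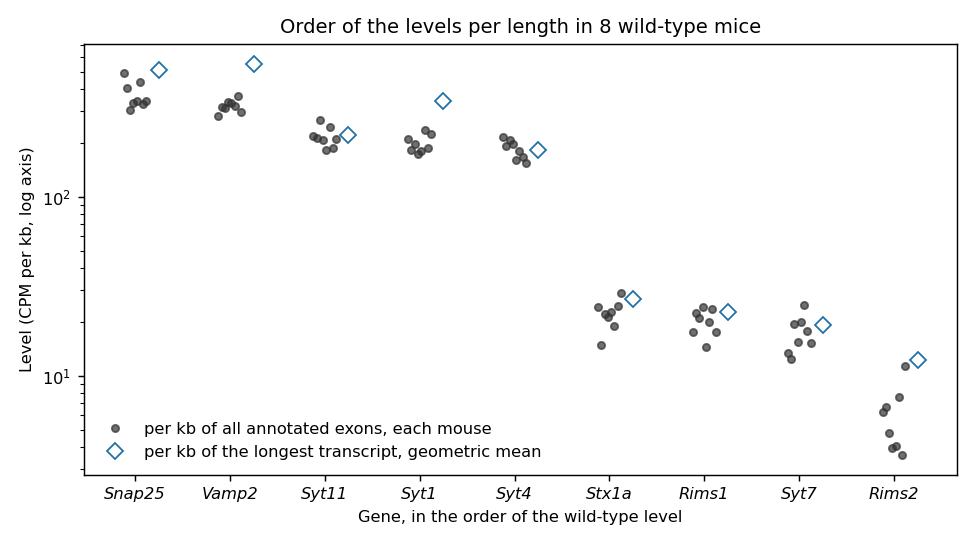
Level per kb of the 9 genes in wild type on a log axis, in the order of the geometric mean per kb of all annotated exons, where points are the 8 mice and diamonds are geometric means per kb of the longest transcript. Every mouse has 5 genes above 155 CPM per kb and 4 genes below 30, and the diamonds lie well above the points' centres for Snap25, Vamp2, Syt1 and Rims2.

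Each gene was also placed within its own family by its share of the summed CPM per kb of all annotated exons. Shares by the longest transcript were not computed, and the order within a family can change with the length used. Syt1, for example, stood above Syt11 per kb of the longest transcript (342 and 222 CPM per kb in wild type). Of 15 synaptotagmin genes, Syt11 held 21.9% ± 1.86 of the sum in wild type (SD, n = 8), Syt1 20.2% ± 1.84 and Syt4 18.7% ± 1.92, whereas Syt7 held 1.76% ± 0.417. The 4 together held 62.5% ± 2.98 in wild type and 63.0% ± 2.72 in MCU-KO. Outside the set, Syt13 (12.6%) and Syt5 (9.85%) were the next in wild type. Among the 4 RIM genes, Rims1 led at 41.6% ± 6.48 and Rims2 was last at 12.6% ± 5.58 by the length of all exons. Rims2 has 10389 bases of annotated exons but 4800 in its longest transcript, whereas Rims4 has 4962 by either length. Rims3 and Rims4, which encode short RIM proteins, held 30.9% and 14.9%. Vamp2 made up 87.8% ± 1.80 of the sum over 4 VAMP genes in wild type and 86.1% ± 3.62 in MCU-KO. Snap25 shared its family about evenly with Snap47, at 373 and 368 CPM per kb on average in wild type.

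Release properties depend on which isoform a terminal uses, and 4 ratios within a mouse were compared between genotypes. No ratio passed the test (0 of 4 at an adjusted p under 0.05, exact two-sided permutation test over 12870 splits, with 0 at an unadjusted p under 0.05). Syt1 exceeded Syt7 by 11.7-fold per kb of all annotated exons in wild type and in 8 of 8 mice. Per kb of the longest transcript the gap was larger, with geometric means of 342 CPM per kb for Syt1 and 19.1 for Syt7. The log2 ratio of Syt7 to Syt1 per kb ran from -3.97 to -3.17 in wild type (median -3.45) and from -4.13 to -3.65 in MCU-KO (median -3.73). The mean log2 ratio of MCU-KO minus that of wild type was -0.26, with a 95% interval from -0.54 to 0.02 (exact permutation p = 0.0659, adjusted p = 0.329). The ranges of the genotypes overlapped, and this ratio had the smallest p of the 4.

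Syt11 to Syt4 was close to even, with a mean log2 ratio per kb of 0.23 in wild type and 0.12 in MCU-KO, and the difference was -0.11 (95% interval -0.28 to 0.07, exact permutation adjusted p = 0.484). Syt11 was nonetheless the higher in 8 of 8 wild-type mice, at log2 ratios from 0.01 to 0.45. In MCU-KO the ratio ran from -0.13 to 0.32. Per kb of all annotated exons, Rims1 exceeded Rims2 by 3.53-fold in wild type, in 8 of 8 mice. Per kb of the longest transcript the gap was smaller, with geometric means of 22.7 CPM per kb for Rims1 and 12.2 for Rims2. Mice were not counted by that length. The log2 ratio of Rims2 to Rims1 differed by 0.09 between genotypes, with a wide interval from -0.66 to 0.83 (exact permutation adjusted p = 0.789). Per kb of all annotated exons (3809 bases for Vamp2, 10167 for Vamp1), Vamp2 exceeded Vamp1, the gene of synaptobrevin-1, by 27.5-fold in wild type. Without correction for length, the mean log2 ratio of their counts was 3.36 in wild type. Between genotypes their log2 ratio differed by -0.19 (95% interval -0.59 to 0.20, exact permutation adjusted p = 0.484).

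**Figure D4:**
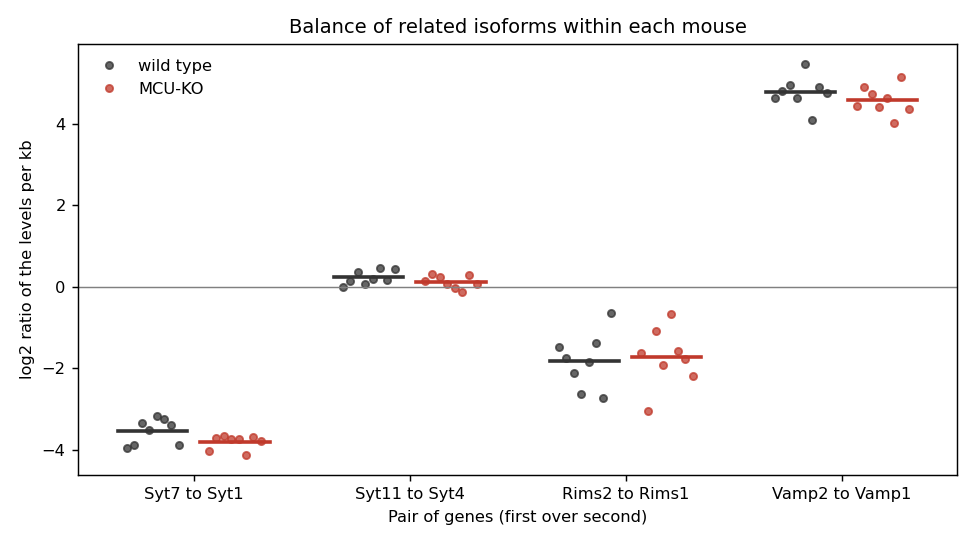
Log2 ratio of the levels per kb for 4 pairs of related genes, where points are 8 wild-type and 8 MCU-KO mice and horizontal bars are means. Syt7 to Syt1 lies near -3.55 in wild type and -3.80 in MCU-KO, the genotypes overlap in every pair, and Rims2 to Rims1 is the most widely spread.

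The remaining genes of the pathway were read from the same fit. Of 53 further genes, 51 were tested by edgeR, Unc13b (7 of 16 mice at 0 counts) was not, and Vamp7 was not analysed here. None reached the threshold of 0.05 in edgeR's adjusted p, and 3, or 5.88% of them, had an unadjusted p under 0.05 against 4.41% of all genes. DESeq2 and limma-voom also called 0. At an unadjusted p under 0.05 they passed 4 of 52 and 4 of 51 genes, against 5.65% and 6.69% of all genes they tested. DESeq2 did test Unc13b, which was among its 4. The fitted level was higher in MCU-KO for 27 genes and lower for 24, with a median log2 fold change of 0.02.

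By role, the synaptotagmins outside the set had 1 of 11 genes at an unadjusted p under 0.05, Syt16, a family member without Ca2+ binding, at 24.4 to 80.2 CPM in wild type and 63.3 to 90.4 CPM in MCU-KO (log2 fold change 0.48, 95% interval 0.06 to 0.90, edgeR adjusted p = 1.00). Syt13 had the highest CPM of these genes, not corrected for length, with medians of 466 and 517 (log2 fold change 0.13). Of the 8 other SNARE genes tested, Stx4, a plasma membrane syntaxin, passed an unadjusted p under 0.05, with medians of 77.2 CPM in wild type and 109 CPM in MCU-KO (log2 fold change 0.44, 95% interval 0.09 to 0.80, edgeR adjusted p = 0.973). Snap47 had the highest CPM of them, with medians of 959 and 957 and a log2 fold change of -0.03.

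For SNARE assembly and recycling, 0 of 8 genes passed at an unadjusted p under 0.05 by edgeR. The fitted levels of 7 of the 8 were lower in MCU-KO, with a median log2 fold change of -0.05, and the 95% interval of each of the 8 included 0. Over all 12390 genes tested, 6241 fitted levels were higher and 6149 lower. Nsf, the ATPase that takes spent SNARE complexes apart, had the smallest p (log2 fold change -0.12, 95% interval -0.32 to 0.08), and the complexin gene Cplx1, whose product clamps and primes SNARE complexes, the highest CPM (medians 2625 and 2634, log2 fold change -0.10). Among 16 active zone and priming genes, 11 were higher and 5 lower, and Rims3 alone reached an unadjusted p under 0.05. Rims3 had 84.4 to 154 CPM in wild type and 122 to 190.3 CPM in MCU-KO (log2 fold change 0.33, 95% interval 0.06 to 0.60, edgeR adjusted p = 1.00). Cadps2, a priming factor of dense-core and monoamine vesicles, had the highest CPM of these genes, with medians of 312 and 369.8 (log2 fold change 0.24). Of the 8 genes of the Rab and C2 domain effectors, 0 passed by edgeR. Rab27b had medians of 74.5 and 86.0 CPM (log2 fold change 0.37, 95% interval -0.04 to 0.78), and Rab3a, the vesicle GTPase that RIM binds, medians of 1259 and 1222 CPM (log2 fold change -0.06).

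**Figure D5:**
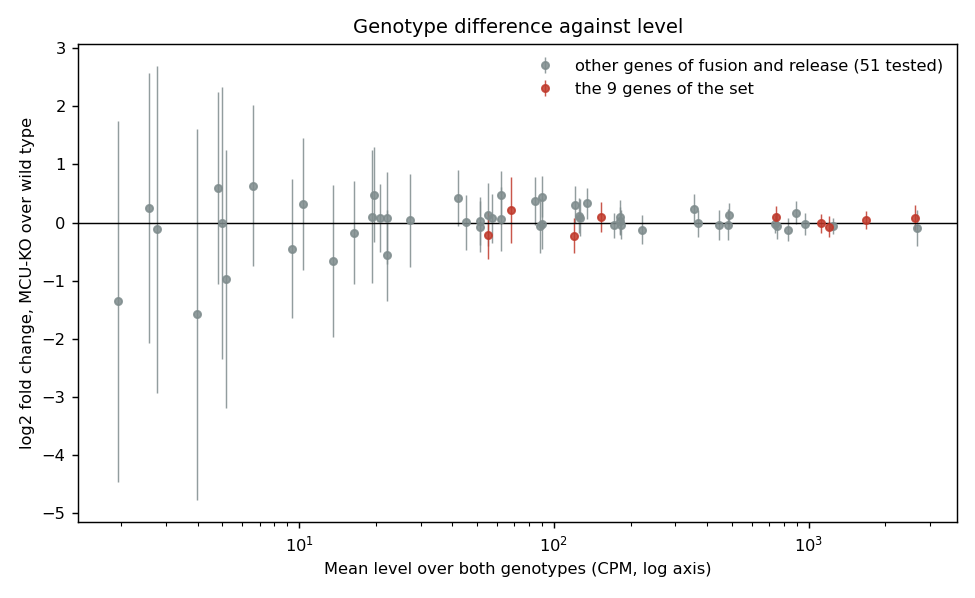
Log2 fold change of MCU-KO over wild type against mean CPM on a log axis for the 9 genes and 51 further genes of fusion and release, with 95% intervals from edgeR as bars. Intervals narrow with level, and the set's Snap25, Syt1, Vamp2 and Syt11 lie at the right, among the highest levels.

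The gene most like each member across the 16 mice was the one with the smallest root mean square difference of log2 CPM after centring, among 12390 genes. The difference was smallest for Vamp2 with Atp5d, Syt4 with Itm2b, Syt11 with Sept4 and Syt1 with Map7d2, each at 0.11 log2 units, followed by Snap25 with Tsc22d1 at 0.13. It was 0.16 for Syt7 with Sncb and for Rims1 with Med28, 0.26 for Stx1a with Srsf5 and 0.35 for Rims2 with Tsr2. Genes of small spread have small differences by construction, and the members' own spread about their mean was 0.13 for Syt1 and 0.59 for Rims2. For Syt1 and Syt11 the difference was nearly as large as their own spread (0.11 against 0.13 for each), whereas for Syt7 it was 0.16 against 0.29.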

How the data were processed

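RiboTag mRNA of 16 mice (8 per genotype, 1 library each) was analysed, with groups and mouse numbers taken from the labels. The authors' steps were trimming (Trim Galore, cutadapt), alignment by STAR to mm10 and gene counting by HTSeq with an Ensembl annotation. Tool versions, strandedness and Ensembl release are not given in the sources used here. The deposited values are raw counts per gene, without normalization. Totals ranged from 14129527 to 22016362 counts, and 3 counts, the smallest amount taken as detectable, correspond to 0.136 to 0.212 CPM, for counting error only. Nothing in the labels names a batch.

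Symbols, coordinates and exon lengths came from GENCODE M21 (GRCm38), in which 24942 of 25006 identifiers had a symbol. The genotypes were compared in R 4.3.3 by edgeR 4.0.16, using TMM after filterByExpr on the genotypes, then glmQLFit and glmQLFTest. P-values were adjusted by Benjamini-Hochberg over all 12390 genes, and 0.05 was the threshold. DESeq2 1.42.0, which the study used, and limma-voom (limma 3.58.1) were alternatives, as were other filters and scalings, a replicate block, a dopaminergic marker covariate and leaving out each mouse. CPM is the count scaled to the summed counts of the tested genes times the TMM factor. Ratios and levels per kb used a pseudocount of 1 count and exact tests, and intervals of ratio differences were obtained by inverting the exact permutation test. Ratio p-values were adjusted over 5 pairs, of which 1 is not reported here. P-values set a difference against the spread between these mice. Shared sequence is the percentage of stretches of 50 bases in a gene's transcripts found, on either strand, in those of another gene. Simulated counts with known changes were used to test the fits.

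The members and lists were chosen with earlier results of these data known. The genes named are all members, in each of 5 roles the pathway gene with the smallest p and the one with the highest mean CPM, Mcu, Th and Slc6a3, and 1 most similar gene per member. Other genes of a member's family are named with their shares, and these were chosen after their values were seen. Python 3.11.15, numpy 2.4.6, pandas 2.3.3, scipy 1.17.1 and matplotlib 3.10.9 were used.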

Additional observations from a re-analysis of the deposited data

Results flagged for a closer look

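Rims1 in MCU-KO mouse 4 stood at 216 CPM, with the other 7 MCU-KO mice between 140.1 and 161 CPM. The gap to the nearest mouse was 0.722 of the whole range of the group, above the limit for 8 samples. It was the only such value in 28 groups of 8 mice examined, where chance gives about 1.4.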

How the results depend on the processing

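The count of members called was 0 under all 24 alternatives (other tools, scalings and filters, a replicate block, a dopaminergic marker covariate and leaving out each mouse), as was that of the other pathway genes. The lowest unadjusted p of a member was 0.0637, for Syt7 without wild-type mouse 2 (edgeR adjusted p = 1.00), and the lowest adjusted p was 0.691, for Syt7 in edgeR without a filter on low counts. Leaving out single mice moved the log2 fold change of Syt11 between -0.040 and 0.043 and the Rims2 to Rims1 difference between -0.059 and 0.28, so that both changed sign, at sizes far inside their intervals. The log2 fold change without single mice ran from 0.02 to 0.08 for Syt1, from 0.07 to 0.14 for Syt4, from -0.28 to -0.13 for Syt7, from 0.03 to 0.14 for Rims1, from 0.03 to 0.15 for Snap25, from -0.33 to -0.14 for Stx1a and from -0.11 to -0.01 for Vamp2. The signs of the other members and ratios were kept under every alternative run. The count of ratios called was 0 under 18 alternatives, and that of neighbours that differ was 3 or 4 under 10, with 4 per kb of the longest transcript. By that length the pairs were mostly others, and only Syt4 and Stx1a were neighbours that differed by both lengths. With the replicate block, 0 members, 0 further pathway genes and 0 ratios were called, and 14 genes in all against 22 without it. The numbers did not pair the mice: same-numbered mice are different animals, their deviations correlated between -0.06 and 0.03, and 0 of 8 wild-type mice correlated best with their own number. Over all genes, DESeq2 called 90 genes where edgeR called 22. The lowest count of a member in a mouse was 538, and the spread between mice was widest for Rims2, Stx1a and Syt7. The part of depth or library quality in that spread was not tested.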

Other observations

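Members were also compared with each other across mice, on log2 CPM centred within genotype, a comparison added after the values were seen. Of 36 pairs, 0 passed Benjamini-Hochberg adjustment by Pearson's r or Spearman's rho, and 5 had a permutation p under 0.05 before adjustment, 3 by r and 3 by rho. Syt7 and Vamp2 had r = 0.50 (permutation p = 0.0305, adjusted p = 0.486) and rho = 0.48 (permutation p = 0.0644, adjusted p = 0.402) over 16 mice. Within genotypes, r was 0.37 in wild type and 0.71 in MCU-KO, and it was 0.65 without the pair of mice farthest from the median of Syt7. Snap25 and Stx1a had r = -0.55 (permutation p = 0.0355, adjusted p = 0.486) and rho = -0.52 (permutation p = 0.0523, adjusted p = 0.402), with r = -0.29 in wild type, -0.75 in MCU-KO and -0.59 without the pair of mice farthest from the median of Snap25. Syt4 and Vamp2 had r = -0.47 (permutation p = 0.0488, adjusted p = 0.486) and rho = -0.51 (permutation p = 0.0464, adjusted p = 0.402), with r = -0.38 in wild type, -0.62 in MCU-KO and -0.55 without the pair farthest from the median of Syt4. Rims2 and Vamp2 had r = -0.53 (permutation p = 0.0540, adjusted p = 0.486) and rho = -0.64 (permutation p = 0.00978, adjusted p = 0.352), with r = -0.70 in wild type, -0.48 in MCU-KO and -0.43 without the pair farthest from the median of Rims2. Rims2 and Snap25 had r = 0.44 (permutation p = 0.106, adjusted p = 0.625) and rho = 0.52 (permutation p = 0.0468, adjusted p = 0.402), with r = 0.41 in wild type, 0.46 in MCU-KO and 0.62 without the pair farthest from the median of Rims2. Mice were left out by their distance in the first gene of a pair only, so a mouse extreme in the second gene could stay in. MCU-KO mouse 6 had the lowest Vamp2, the lowest Syt7 and the highest Syt4 of all 16 mice. Its part in the pairs of these genes was not tested.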
